A study of Zea mays with 6 samples.

Results

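Chloroplasts of maize (Zea mays) keep a small genome of their own, and most of the proteins that transcribe it, splice its RNAs, edit them and hold them stable are encoded in the nucleus. This account covers 80 of those nuclear genes among the 45953 features of the deposited table, chosen by words in their names and descriptions: 51 pentatricopeptide repeat (PPR) proteins described as chloroplastic, 11 plastid transcriptionally active (PTAC) proteins, 7 sigma factors, 5 multiple organellar RNA editing factors (MORF) and 4 CRS2-associated factors. The remaining 2 matched a word only, a sulfate transporter with an anti-sigma factor antagonist domain and a protein named after the bacterial regulator rsbQ, and are given apart. No gene matched CRM domain. Of the CRS2-associated and MORF genes 3 are described as mitochondrial alone, so the set is not purely plastid by its own labels. The descriptions of 3 PPR genes, counted here as chloroplastic, of sigma factor sigE and of MORF 8 name both organelles.

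Sigma factors are the subunits that let the bacterial-type plastid RNA polymerase recognise promoters, and PTAC proteins are found with that polymerase or with plastid DNA. PPR proteins bind single RNA strands through tandem repeats, each protein usually serving a few transcripts, which it stabilises, splices or edits. MORF proteins work with PPR proteins in C-to-U editing, and CRS2-associated factors form splicing complexes for group II introns. In maize and other grasses this machinery is most abundant in young leaf tissue, where chloroplasts are being built.

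Leaf RNA was sequenced in 3 LW and 3 CW libraries. The LW plants were droughted but received a continuous supply through negative pressure irrigation, in which a porous emitter lets the soil pull in water as it dries. The CW plants had moist soil and drip irrigation. The irrigation method and the soil water therefore changed together and cannot be told apart. Cultivar, plant age and leaf position were not stated in what was used here. Separate plants are not named as the origin of the replicates, and p-values then reflect only how far these libraries spread, some of which may be technical.

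The total of estimated counts per library ranged between 62327457 and 84084375 for LW and between 42927751 and 64067543 for CW. Levels below are counts per 1000000 (CPM) on library sizes scaled by edgeR's TMM factors, which ran from 1.055 to 1.206 in LW and from 0.854 to 0.910 in CW. Levels between genes are compared only as FPKM, which is per length. Markers of maize leaf were abundant, with phosphoenolpyruvate carboxylase1 at 1690 ± 1656 CPM in LW and 1458 ± 432 CPM in CW (SD, n = 3 each). Phosphoenolpyruvate carboxykinase1 stood at 2559 ± 885 CPM in LW and 5386 ± 1411 CPM in CW. The meristem gene knotted1 had no count in any library, as had 21 of 29 kernel, meristem and pollen genes. The list still summed to a mean of 21.77 CPM in LW and 21.15 CPM in CW. Most of this was a gene described as a pollen allergen (Zm00001d019895), at 16.5 ± 6.15 CPM in LW and 19.1 ± 5.22 CPM in CW. A knotted-1-like homeobox gene (Zm00001d033404) had 3.94 ± 1.10 CPM in LW and 1.67 ± 0.655 CPM in CW. In bulk leaf, fewer cells of a type and less RNA per cell cannot be told apart.

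Of the 80 genes, 75 had enough counts to be tested, and in edgeR's quasi-likelihood test 6 fell in LW and none rose at a Benjamini-Hochberg adjusted p under 0.05 over all 24704 genes tested. The 6 were 4 sigma factors, 1 PTAC protein and 1 PPR protein. Over all tested genes 2.40% fell and 2.84% rose. At an unadjusted p under 0.05, 12 of the genes were lower and 6 higher, beside 11.4% and 13.3% of all tested genes. DESeq2 called 10 lower, including all 6, and 3 higher, beside 8.24% and 9.80% of all genes. The median log2 fold change was -0.25, beside 0.06 for all tested genes.

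**Figure D1:**
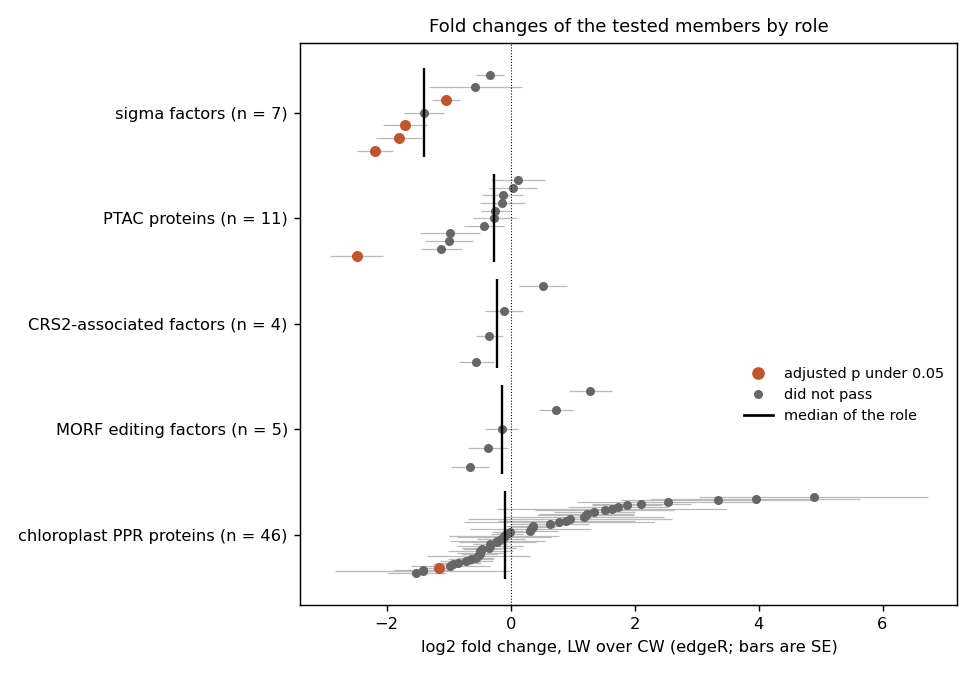
Log2 fold change of LW over CW (horizontal axis, edgeR) for the 73 tested genes that are not word matches, grouped by role; each point is 1 gene, bars are 1 SE, black lines are role medians, and orange points passed at an adjusted p under 0.05. All 7 sigma factors lie left of 0, whereas PPR genes lie on both sides.

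Sigma factors made up 4 of the 6 genes that fell. Of 7 tested, 4 fell and 3 did not pass, and the log2 fold changes, median -1.40, were all below 0. In 5 of them every LW library lay below every CW library, an arrangement seen in 14.9% of all tested genes. Summed over the 7 genes, sigma factor transcripts stood at 482, 461 and 428 CPM in LW replicates 1 to 3, against 1146, 1771 and 1215 CPM in CW replicates 1 to 3. The LW libraries were alike, and CW replicate 2 was the highest.

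Sigma-like factor6 (Zm00001d012810; chromosome 5, 684894 to 687528, plus strand, in the table's unstated build) changed most. Its Arabidopsis counterpart serves plastid promoters early in chloroplast development. It had 133, 126 and 102 CPM in LW, against 457, 685 and 496 CPM in CW. The groups were far apart, and CW replicate 2 was the highest. The gene fell 4.55-fold (log2 fold change -2.18, SE 0.29, adjusted p = 0.0212), and at a mean of 121 FPKM over the 6 libraries it was the most highly expressed of the 7.

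Sigma factor sigC (Zm00001d039181), named after the Arabidopsis factor also called SIG3 that directs transcription of psbN, had 68.8, 62.3 and 93.1 CPM in LW, against 228, 385 and 166 CPM in CW. It fell 3.48-fold (log2 fold change -1.80, SE 0.37, adjusted p = 0.0428). Sigma factor 1A (Zm00001d024507) had 63.0, 60.3 and 34.8 CPM in LW, against 122, 229 and 164 CPM in CW. It fell 3.26-fold (log2 fold change -1.70, SE 0.35, adjusted p = 0.0426). Its close relative sigma factor 1B (Zm00001d049494) was also separated, at 54.0 ± 12.1 CPM in LW and 143 ± 44.1 CPM in CW, but just missed the threshold (log2 fold change -1.40, SE 0.33, adjusted p = 0.0551). How reads were divided between such relatives is not stated in the sources used, so both values are uncertain to that extent.

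Sigma-like factor2B (Zm00001d028585), a maize factor found in both plastids and mitochondria, had 73.4, 82.3 and 68.0 CPM in LW, against 150, 174 and 138 CPM in CW. Its fall was smaller, 2.06-fold, but its libraries were the tightest of the 4 called (log2 fold change -1.05, SE 0.22, adjusted p = 0.0451). The groups overlapped in the other 2 sigma factors, whose sign was positive in 4 (sig2A) and 1 (sigE) of 16 other settings. Sigma factor sig2A (Zm00001d049160) stood at 75.8 ± 11.3 CPM in LW and 95.6 ± 12.5 CPM in CW (adjusted p = 0.424). Sigma factor sigE (Zm00001d039194), whose Arabidopsis counterpart SIG5 is induced by light and stress and serves the psbD promoter, was the least abundant at a mean of 2.79 FPKM, with 4.85 ± 2.27 CPM in LW and 7.19 ± 4.99 CPM in CW (adjusted p = 0.689).

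**Figure D2:**
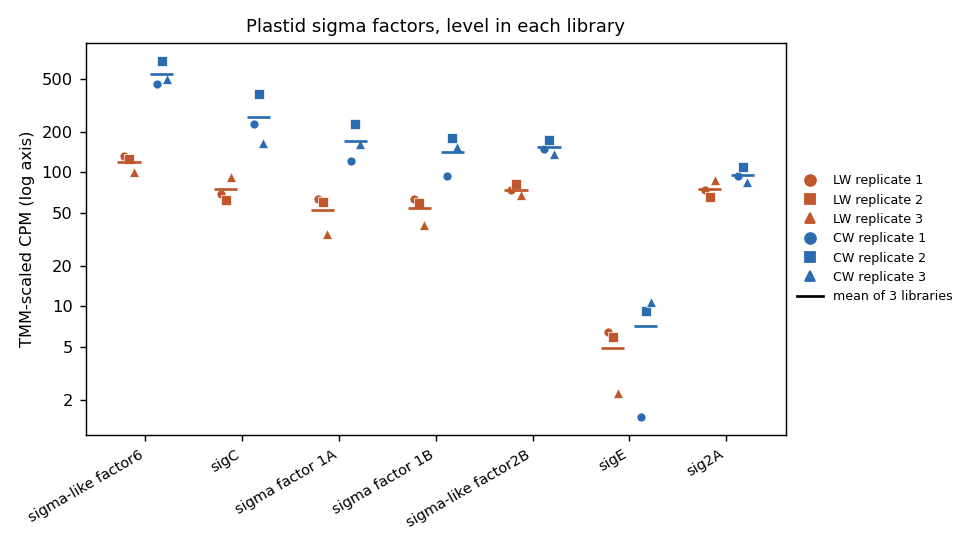
Level of each sigma factor in every library (TMM-scaled CPM, log axis), LW in orange and CW in blue, with marker shape for the replicate and a line at the mean of 3 libraries. Sigma-like factor6 lies between 102 and 133 CPM in LW and between 457 and 685 CPM in CW, while sig2A and sigE overlap.

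These calls depended on which libraries entered the fit. Without CW replicate 3, 10 of the genes were lower, among them the 6 above, and 3 higher, beside 4.64% and 5.88% of all genes. Without CW replicate 1 the 1 gene called was sigma-like factor6, beside 0.336% of all genes lower and 0.730% higher. None was called without CW replicate 2, where no gene of the table was, nor without any 1 LW library, where none of the table was lower and 0.00779%, 0.0119% and 0.00396% were higher without LW replicates 1, 2 and 3. The log2 fold change of sigma-like factor6 stayed between -2.30 and -1.99 in those fits. With libraries scaled by their totals alone, which moves the median of all genes to 0.42, the genes called were sigma-like factor6 and PTAC16, lower, and MORF 1, higher, beside 1.40% and 5.77% of all genes, and the sigma median was -1.04. In limma on log2(FPKM + 1) 4 were lower and 3 higher, beside 2.40% and 10.1% of all genes. With no filter on FPKM 2 were lower and 1 higher, beside 1.21% and 5.81%. On log2(FPKM + 0.1) 4 were lower and 2 higher, beside 2.31% and 9.02%. A replicate block left none called, beside 0.00405% of all genes lower and 0.00810% higher.

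Beside 2.40% of all tested genes, 1 of 11 PTAC proteins fell and 10 did not pass. Their median log2 fold change was -0.26, beside 0.06 for all tested genes. It turned to 0.11 with libraries scaled by totals, beside 0.42 for all tested genes. The gene that fell was plastid transcriptionally active 16 (Zm00001d009877; chromosome 8, 86773769 to 86776719, plus strand), whose Arabidopsis counterpart is a thylakoid membrane protein associated with plastid DNA. It had 62.6, 58.7 and 49.3 CPM in LW, against 308, 487 and 158 CPM in CW. Its LW libraries were close together, and its CW libraries spread over a wide range with no overlap. It fell 5.58-fold (log2 fold change -2.48, SE 0.43, adjusted p = 0.0314), the largest fall of the 75 tested genes, and at 90.7 FPKM it was also the most highly expressed PTAC gene.

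The other 3 PTAC proteins that are not counted among the polymerase-associated proteins of Arabidopsis did not pass. Plastid transcriptionally active 5 (Zm00001d025848), a zinc finger protein of the DnaJ type, was separated at 58.9 ± 13.6 CPM in LW and 128 ± 41.7 CPM in CW (adjusted p = 0.0898). Plastid transcriptionally active 17 (Zm00001d018401) had 131 ± 22.8 CPM in LW and 156 ± 5.43 CPM in CW, and 18 (Zm00001d030153) had 24.1 ± 6.82 CPM in LW and 26.3 ± 7.88 CPM in CW.

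The 7 PTAC proteins whose Arabidopsis counterparts are stable partners of the plastid-encoded polymerase did not pass. In each the groups overlapped, as they did in 16158 of all 24704 tested genes. The median log2 fold change of these 7 was -0.26. The lowest were plastid transcriptionally active14 (Zm00001d009723), a SET domain protein, at 41.2 ± 10.2 CPM in LW and 81.8 ± 36.7 CPM in CW (log2 fold change -0.99, SE 0.39, adjusted p = 0.172), and PTAC 7 (Zm00001d043707) at 33.0 ± 8.49 CPM in LW and 65.3 ± 35.6 CPM in CW (adjusted p = 0.267). In both of these CW replicate 3 fell within or below the LW range, at 44.5 and 24.3 CPM. Without CW replicate 3 both were called lower, with log2 fold changes of -1.28 and -1.37, and so was plastid transcriptionally active 5 at -1.34. PTAC 7 overlaps Zm00001d043708 on the opposite strand, and whether counting used strand is not stated in the sources used, so its value is uncertain.

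The remaining partners differed less. PTAC 2 (Zm00001d022599), itself a PPR-type protein, had a log2 fold change of -0.43 (SE 0.32), PTAC 3 (Zm00001d032790) of -0.26 (SE 0.35) and PTAC 12 (Zm00001d043325), known in Arabidopsis as HEMERA, of -0.13 (SE 0.36). PTAC 6 (Zm00001d052329) stood at 0.04 (SE 0.39) and PTAC 10 (Zm00001d012141), which carries an S1 RNA-binding domain, at 0.12 (SE 0.44).

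**Figure D3:**
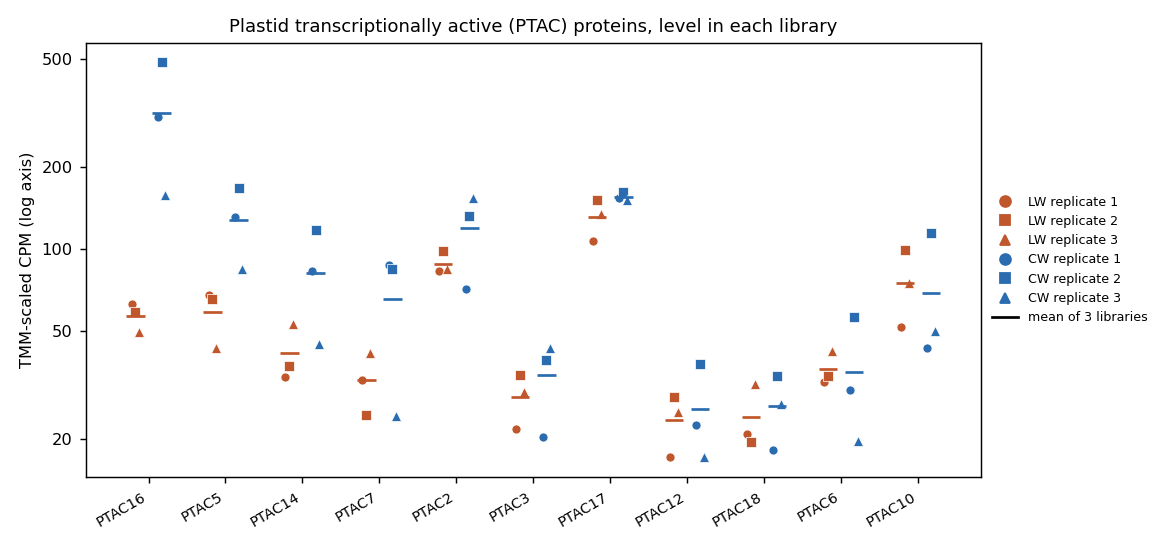
Level of each PTAC gene in every library (TMM-scaled CPM, log axis), ordered by fold change, LW in orange and CW in blue, with a line at the mean of 3 libraries. PTAC16 at the left lies between 49.3 and 62.6 CPM in LW and between 158 and 487 CPM in CW, and CW replicate 2 (blue squares) is the highest CW library in 8 of the 11 genes.

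Neither splicing nor editing cofactors passed. CRS2-associated factor1 (Zm00001d019573), which in maize chloroplasts acts with the CRS2 protein on group II introns, had 27.8, 25.0 and 31.1 CPM in LW, against 35.7, 38.4 and 32.2 CPM in CW. The groups did not overlap but lay close (log2 fold change -0.34, SE 0.22, adjusted p = 0.384), and the sign turned in 4 of 16 other settings. Its partner gene CRS2-associated factor2 (Zm00001d040696) had 23.9 ± 2.58 CPM in LW and 35.1 ± 9.97 CPM in CW (adjusted p = 0.284). The genes described as mitochondrial, CRS2-associated factor 1 (Zm00001d024429) and factor 2 (Zm00001d049440), had log2 fold changes of 0.52 (SE 0.39) and -0.11 (SE 0.31).

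None of the 5 MORF genes passed, and their signs were mixed. MORF 1 (Zm00001d049043), described as mitochondrial, had 27.7, 46.5 and 29.2 CPM in LW, against 9.80, 13.7 and 18.8 CPM in CW, all LW libraries above all CW libraries (log2 fold change 1.29, SE 0.35, adjusted p = 0.0751). MORF 8 (Zm00001d048291), described for both organelles, had 217, 211 and 207 CPM in LW, against 104, 108 and 171 CPM in CW (log2 fold change 0.73, SE 0.27, adjusted p = 0.155). MORF 1 was called higher in 6 of 16 other settings, including DESeq2 and totals, and MORF 8 in 3.

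The 3 MORF genes described as chloroplastic had negative values, though the sign turned in 1 of 16 other settings for MORF 9 and in 5 for Zm00001d045528. MORF 9 (Zm00001d024674), the most highly expressed of this family at 121 FPKM, had 133 ± 31.1 CPM in LW and 171 ± 51.5 CPM in CW. A MORF 2 gene (Zm00001d026243) was separated at 63.1 ± 9.46 CPM in LW and 99.4 ± 34.5 CPM in CW (adjusted p = 0.236), and the second (Zm00001d045528, which overlaps Zm00001d045527 on the opposite strand) had 26.8 ± 4.53 CPM in LW and 29.6 ± 6.44 CPM in CW. In limma on log2(FPKM + 0.1) 4 of the 5 MORF genes were positive.

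Of the 51 chloroplast PPR genes 46 were tested, of which 1 fell and 45 did not pass. That is a share no larger than the 2.40% of all tested genes that fell. These genes were weakly expressed, with a median of 1.65 FPKM over genes, 21 genes below 1 FPKM and 3 at 10 FPKM or more. Summed, they stood at 584, 592 and 526 CPM in LW replicates 1 to 3, against 697, 1024 and 634 CPM in CW replicates 1 to 3. The sums did not overlap on this scale, but they do overlap once the TMM factors are removed. The median log2 fold change of the tested PPR genes was -0.08, and 0.30 with libraries scaled by totals, beside 0.06 and 0.42 for all tested genes. The 5 untested genes reached at most 2.05 CPM in any library; all 5 had counts in LW and 4 had none in CW, so counts over the tested genes leave out some that leaned to LW.

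The PPR gene that fell (Zm00001d038022; chromosome 6, 145415188 to 145419374, minus strand) has no name beyond the family description. It had 37.2, 33.7 and 25.7 CPM in LW, against 66.4, 80.5 and 69.2 CPM in CW. It fell 2.24-fold (log2 fold change -1.16, SE 0.24, adjusted p = 0.0428). At 21.4 FPKM it ranked among the 3 most highly expressed PPR genes of the set, with the ELI1 gene at 36.1 FPKM and Zm00001d047759 at 21.5 FPKM. Zm00001d047759 had 52.9 ± 7.40 CPM in LW and 82.9 ± 39.9 CPM in CW (adjusted p = 0.317).

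None of the PPR genes with a specific name passed. The gene described as ELI1 (Zm00001d018639), an editing factor for ndhB in Arabidopsis, had 228, 171 and 166 CPM in LW, against 262, 335 and 204 CPM in CW (log2 fold change -0.50, SE 0.28, adjusted p = 0.327). The groups overlapped through LW replicate 1 and CW replicate 3. MRL1 (Zm00001d030398), which stabilises the rbcL transcript in Arabidopsis and Chlamydomonas, had 26.6 ± 5.29 CPM in LW and 39.4 ± 12.3 CPM in CW (log2 fold change -0.57, SE 0.30, adjusted p = 0.299).

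The gene spelled DWY1 in the table (Zm00001d013181) had 5.30 ± 0.583 CPM in LW and 6.78 ± 3.37 CPM in CW. Organelle transcript processing51 (Zm00001d017751), needed in Arabidopsis for splicing of ycf3, had 14.7 ± 0.927 CPM in LW and 14.8 ± 4.42 CPM in CW; it overlaps Zm00001d017752 on the opposite strand. Zm00001d035922 carries the name of an ABI3-VP1 transcription factor beside its PPR description and overlaps Zm00001d035921, so its identity is unclear; it had 7.16 ± 1.93 CPM in LW and 14.0 ± 11.2 CPM in CW.

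At an unadjusted p under 0.05, 4 of 46 PPR genes were lower, the called one included, and 4 higher, neither count above the shares of all genes (11.4% and 13.3%). The 3 given here were chosen after their values were seen. Zm00001d043529 had 2.91, 4.88 and 3.44 CPM in LW, against 11.7, 15.3 and 5.31 CPM in CW (adjusted p = 0.103). Zm00001d024409 had 7.49, 19.6 and 10.6 CPM in LW, against 29.3, 51.0 and 19.7 CPM in CW (adjusted p = 0.127). In the other direction, Zm00001d011788 had 3.52, 7.49 and 5.87 CPM in LW, against 0.788, 1.85 and 1.94 CPM in CW (log2 fold change 1.88, SE 0.56, adjusted p = 0.0922). Over the 46 tested, 4 lay wholly lower and 9 wholly higher in LW, shares no larger than the 14.9% and 19.7% of all tested genes.

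**Figure D4:**
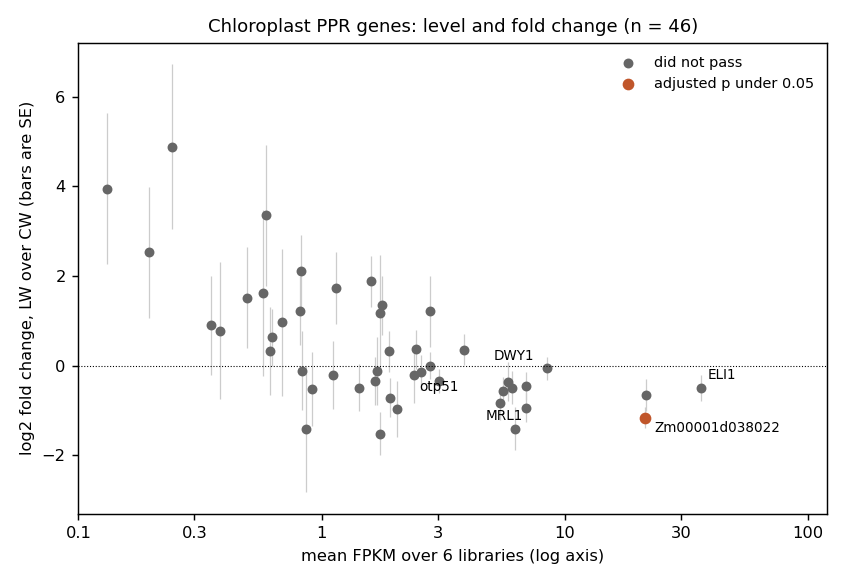
Log2 fold change of LW over CW (vertical axis, bars are 1 SE) against mean FPKM over the 6 libraries (log axis) for the 46 tested chloroplast PPR genes; the orange point passed at an adjusted p under 0.05. Of the 19 genes at 2 FPKM or more 16 lie below 0 with TMM scaling, beside 8861 of all 16805 tested genes at that level. Genes below that level have wide bars, and 10 of those 27 entered the test through LW.

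The 19 tested PPR genes at a mean of 2 FPKM or more all reached the minimum level for testing, 0.158 CPM on unscaled totals, in every library. In 16 of these the log2 fold change was below 0 (median -0.46), beside 8861 of all 16805 tested genes at that level (median -0.06). These signs depend on the scaling. All 5 PPR genes with a name of their own are at this level, and all 5 were negative as reported. With libraries scaled by totals, which moves the median of all genes to 0.42, 3 of the 5 were negative. The 19 genes were not counted again under that scaling. Of the 27 genes below 2 FPKM, 10 reached the minimum in all 3 LW libraries but not in all 3 CW libraries, and none the other way round. These entered the test through LW, which largely fixes their sign, so no direction is read from the lower levels. Zm00001d013941, for example, had 0.472, 1.61 and 0.250 CPM in LW, against 0.0788, 0 and 0 CPM in CW. The split point was chosen after the values were seen.

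PPR genes outside the set went both ways at the same level. Of 57 tested genes of 2 FPKM or more with neither organelle in the description 35 had a negative log2 fold change (median -0.21), and of 28 described as mitochondrial 8 did (median 0.28). The differences between these sets and the chloroplast genes were not tested. Over all tested genes 2.40% fell. At all levels none of 107 tested mitochondrial genes passed in edgeR (adjusted p under 0.05), and of 235 tested with neither word 4 fell. The 4 were pentatricopeptide repeat smr4 (Zm00001d015030), Zm00001d042494, Zm00001d045550 and Zm00001d051532. Zm00001d042494 had 90.4, 119 and 124 CPM in LW, against 629, 602 and 238 CPM in CW (adjusted p = 0.0388).

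Other nuclear factors of plastid gene expression were matched by words, and their calls stand beside 2.40% of all tested genes lower and 2.84% higher. Among 7 tested genes associated with the plastid polymerase 1 rose, fructokinase-like 1 (Zm00001d035038, named FRK2 in the table), a partner of that polymerase in Arabidopsis, at 63.0 ± 14.3 CPM in LW and 22.5 ± 4.66 CPM in CW (log2 fold change 1.48, SE 0.28, adjusted p = 0.0350). The nucleoid protein whirly1 (Zm00001d036148), in the same list, stood at 18.1 ± 2.77 CPM in LW and 64.4 ± 45.7 CPM in CW (adjusted p = 0.0745). In that list 12 genes, all described as DNA-directed RNA polymerase 3, are listed at 0 in every library. Of 27 tested mTERF genes, which are organelle transcription termination factor relatives, 1 rose, Zm00001d018123. It had 1.55 ± 0.679 CPM in LW and no count in CW, so it entered the test through LW alone.

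In the RNA processing list 1 of 16 tested fell, Zm00001d004478, an iron-sulfur cluster assembly factor HCF101, which is not an RNA processing protein; it had 159 ± 27.4 CPM in LW and 474 ± 51.3 CPM in CW (adjusted p = 0.0304). None of 4 chloroplast ribonucleoproteins and none of 3 tested plastid translation factors passed. Their sums were 253 ± 41.6 and 260 ± 36.8 CPM in LW, and 489 ± 213 and 587 ± 290 CPM in CW. Of these the RNA-binding protein CP31B gene Zm00001d019648 had 142 ± 11.1 CPM in LW and 331 ± 114 CPM in CW (adjusted p = 0.0733).

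Plastid transcripts on which these factors act were low in LW, with the caveat that the labels name both poly(A) selection and a poly(A)- fraction, so how organelle RNA entered the libraries is not settled. Summed transcripts of 31 plastid genes for photosystems, cytochrome b6f, ATP synthase and rbcL stood at 240, 37.5 and 66.9 CPM in LW replicates 1 to 3, against 1911, 1565 and 282 CPM in CW replicates 1 to 3. CW replicate 3 was close to LW replicate 1 in this sum, whereas its sigma factor sum of 1215 CPM was like that of CW replicate 1. The 4 plastid polymerase subunit genes (rpo) summed to 9.18, 2.54 and 6.13 CPM in LW, against 24.9, 25.0 and 11.1 CPM in CW, and none passed.

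Of 51 tested plastid genes for photosynthetic complexes, polymerase subunits, the NDH complex and ribosomal proteins 5 fell and none rose. Over all tested genes 2.40% fell and 2.84% rose. The 5 plastid genes were atpH of the ATP synthase (adjusted p = 0.0417), petL (0.0389) and petG (0.0350) of cytochrome b6f, ndhC of the NDH complex (0.0451) and the ribosomal protein gene rps4 (0.0349). The ndhC transcript had the highest mean FPKM of them, and stood at 77.5, 19.2 and 62.6 CPM in LW, against 1162, 1181 and 179 CPM in CW (log2 fold change -3.98, SE 0.85). The groups did not overlap in any of the 5, which were picked by the test on these same values. Over all tested genes 14.9% lay wholly lower in LW.

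Transcripts served by single members, chosen after their levels had been seen, did not pass. The rbcL transcript, bound by MRL1 in other species, had 158, 6.57 and 14.0 CPM in LW, against 738, 1252 and 162 CPM in CW (adjusted p = 0.149). The psbN transcript had 1.18 ± 1.59 CPM in LW and 2.59 ± 0.801 CPM in CW (adjusted p = 0.561), and psbD had 0.394 ± 0.358 CPM in LW and 15.7 ± 20.6 CPM in CW (adjusted p = 0.0712). The ycf3 transcript had 4.89, 1.72 and 2.87 CPM in LW, against 6.78, 6.05 and 9.08 CPM in CW (adjusted p = 0.179). The ndhD transcript, looked up with these, had 5.13, 0.657 and 1.87 CPM in LW, against 33.0, 6.29 and 5.24 CPM in CW (adjusted p = 0.166).

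Some markers of leaf cell types and of dividing tissue were also lower in LW, but each list was mixed in sign. Over all tested genes 2.40% fell. Genes of the bundle sheath, 11 in number and including the Rubisco small subunits, summed to between 3519 and 5480 CPM in LW and between 9494 and 32720 CPM in CW, and 2 of 7 tested fell, both Rubisco small subunit genes. Mesophyll genes, 19 in number, overlapped at 3742 to 9129 CPM in LW and 6421 to 9288 CPM in CW, and 1 of 16 tested fell. That gene was pyruvate orthophosphate dikinase2 (Zm00001d010321), at 28.8 ± 8.44 CPM in LW and 219 ± 21.3 CPM in CW (adjusted p = 0.0192). Log2 fold changes were positive in 2 of the 7 tested bundle sheath genes and in 7 of the 16 tested mesophyll genes. In limma on log2(FPKM + 1) 2 bundle sheath genes were higher and 1 lower, and 3 mesophyll genes were higher and 1 lower. Over all genes that fit called 10.1% higher and 2.40% lower. Histone and cyclin genes of dividing tissue, 114 in number, summed to between 1488 and 1604 CPM in LW and between 1874 and 2387 CPM in CW. These sums overlap once the TMM factors are removed. Of 73 tested genes of the dividing tissue list 4 fell, all histones. Within that list 32 log2 fold changes were positive and 41 negative (median -0.14), and with libraries scaled by totals 47 were positive and none was called. The part of these markers in the lower sigma factor and PTAC16 levels was not tested.

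The 2 genes matched by a word alone did not pass. The sulfate transporter gene (Zm00001d002038) had 82.1, 19.3 and 77.3 CPM in LW, against 132, 188 and 53.5 CPM in CW, and the rsbQ-like gene (Zm00001d028094), whose bacterial namesake takes part in a stress signalling pathway, had 458 ± 136 CPM in LW and 544 ± 260 CPM in CW. Leaving both out changes no count of called genes.

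**Figure D5:**
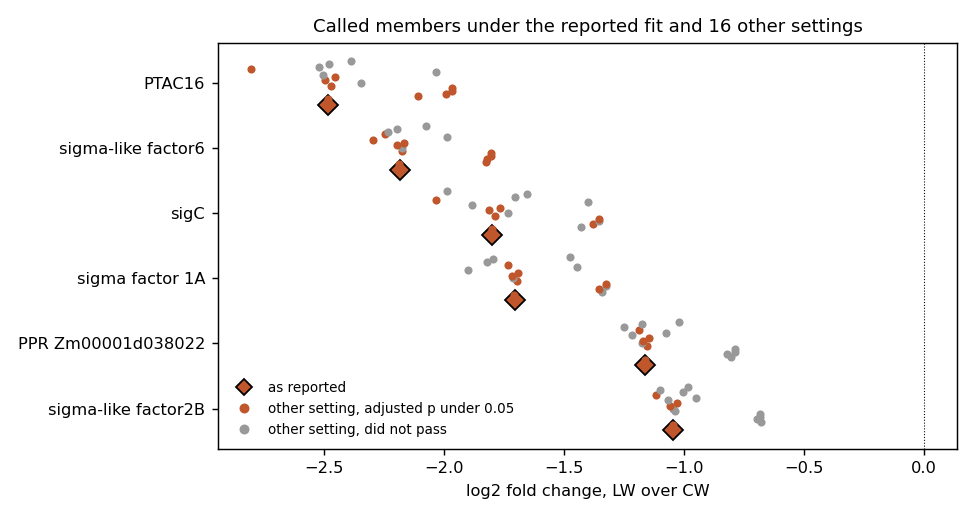
Log2 fold change of the 6 called genes (horizontal axis) in the reported fit (diamonds) and in 16 other settings (circles), orange where the adjusted p was under 0.05 and grey where it was not. Every value lies below 0; sigma-like factor6 passed in 11 of the 16 and sigma-like factor2B in 5.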

How the data were processed

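The authors deposited 1 table with an FPKM value and a whole-number count per gene and library, per the file headers. Per the submitters' processing notes FastQC 0.10.1, HISAT2 2.0, StringTie 1.3.4 and edgeR were used, without their roles; build, annotation and strand setting were not stated in them. Of the deposited counts from 1 to 40, 28.6% to 31.4% are multiples of 4, so they were treated as estimated counts and no counting interval is given. Groups and replicate numbers follow the titles; the source name of CW replicate 2 gives repeat 3, as does that of CW replicate 3, so which of these is which rests on the titles and column names alone; every per-sample column was matched, and no row lacked a gene.

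Counts were tested with edgeR 4.0.16 (R 4.3.3; TMM, filterByExpr, glmQLFit and glmQLFTest, group as the only term, all 6 libraries), with Benjamini-Hochberg adjustment over 24704 genes. Folds are the fitted log2 fold changes on a linear scale. The other settings used limma 3.58.1 on log2(FPKM + 1) or log2(FPKM + 0.1), DESeq2 1.42.0, other scalings and filters, a replicate block and each library left out. The edgeR, limma and DESeq2 fits were tested on simulated counts. The simulation had less spread than these data and changed only well-covered genes by large folds. It therefore does not speak to genes of low count or small fold. The smallest p of an exact test of 3 against 3 is 0.1, so sums carry no test.

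Genes named are every called one, the 3 of highest mean FPKM in each role, every gene that is not a PPR gene, and PPR genes with a name of their own; others are marked. Members, lists and alternatives were chosen with earlier results of these data known. Roles given for genes are background knowledge.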

Additional observations from a re-analysis of the deposited data

How the results depend on the processing

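The counts of called genes depended on the setting. The share of all tested genes called in the same fit and direction is given in brackets. Lower in LW were 6 genes as reported (2.40%), 10 in DESeq2 (8.24%) and 2 with libraries scaled by totals (1.40%). In limma on log2(FPKM + 1) with no filter 2 were lower (1.21%), and with a replicate block 0 (0.00405%). Higher were 0 as reported (2.84%), 3 in DESeq2 (9.80%) and 1 with totals (5.77%). In limma on log2(FPKM + 0.1) 2 were higher (9.02%), on log2(FPKM + 1) 3 (10.1%) and 1 of these with no filter (5.81%). Leaving out 1 library gave 0 to 10 lower and 0 to 3 higher. With CW replicate 3 left out 10 and 3 were called (4.64% and 5.88%), and with CW replicate 1 left out 1 and 0 (0.336% and 0.730%). In the other 4 fits none was called (at most 0.0119% of all tested genes in either direction). The median log2 fold change of -0.25 ran from -0.36 to -0.10 with a library left out and turned to 0.12 with totals, 0.0863 in limma on log2(FPKM + 1) (0.13 with no filter) and 0.0894 on log2(FPKM + 0.1). Against the median of all genes it stayed lower, by 0.31 as reported and 0.31 with totals; without a filter in limma the gap was 0.04. With totals the medians of PTAC, PPR, CRS2-associated and MORF genes turned to 0.11, 0.30, 0.14 and 0.20. With no low-count filter, which admits all 51 PPR genes, their median was 0.33. The cause was not tested.

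Deviations from the group means correlated at -0.04, 0.00 and -0.24 for replicate numbers 1 to 3, and between -0.12 and 0.18 for unlike numbers. With 3 centred libraries per group these values cannot decide whether the libraries were paired. The source names of CW replicates 2 and 3 also give the same repeat. With the replicate block 2 genes of the whole table were higher and 1 lower. Over 36 named genes and their 576 alternative values, 513 stayed on the same side of the threshold, 48 no longer passed and 15 newly passed; no called value changed sign, and 66 values changed sign where the gene was called in neither fit.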

Other observations

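Libraries of the CW group differed among themselves over these genes. CW replicate 2 held the highest CW value in 18 of the 27 tested sigma, PTAC, MORF and CRS2-associated genes, or 66.7%, where it did so in 31.5% of all tested genes, and in 22 of 46 PPR genes. In LW, replicate 2 held the highest value in 31 of the 46 PPR genes (67.4%, beside 37.3% of all tested genes) and in 9 of the 27 other factors. These are counts over genes of the same libraries and carry no test.

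A run of 4 PPR genes of the set on chromosome 5 (Zm00001d015041, Zm00001d015047, Zm00001d015052 and Zm00001d015057) lies between 73020806 and 73771307 of the table's unstated build. All were close to silent, at mean levels of 0.06, 0.03, 0.20 and 0.05 FPKM, and only Zm00001d015052 was tested, with 0.624, 0.438 and 0.877 CPM in LW, against 0, 0.0669 and 0.258 CPM in CW (edgeR adjusted p = 0.334). The pair Zm00001d021733 and Zm00001d021734, which neighbour each other on opposite strands of chromosome 7, had log2 fold changes of -0.52 (SE 0.83) and -1.42 (SE 1.41), and Zm00001d021734 stood at 0.02 CPM in CW replicate 3 against 1.81 and 2.83 CPM in CW replicates 1 and 2.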
